A study of Rattus norvegicus with 4 samples.

Results

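Id1, Id2, Id3, Id4, Hes1, Bhlhe40 and Bhlhe41 encode helix-loop-helix repressors of transcription, and their transcripts were followed in rat adrenal medulla, the catecholamine-secreting core of the adrenal gland, after immobilization stress. A member was any probe set, a group of short array probes reporting on 1 transcript, whose platform annotation names 1 gene only, that gene being one of these 7. The rule gave 11 of the 31042 probe sets in the deposited table: 1 each for Id1, Id3, Hes1, Bhlhe40 and Bhlhe41, 2 for Id2 and 4 for Id4. Probe sets of the same gene share their target and are not replicates of each other. The immobilized group held 2 arrays, from rats kept immobile for 2 h, and the unstressed group held 2 arrays, from rats that were not stressed. Each array was hybridised with total RNA of adrenal medulla. The labels give no strain, sex, age or genotype, no interval between stress and dissection, and no word on whether an array stands for 1 animal or a pool. The p-values therefore measure the spread between these arrays, which may be technical, and 2 arrays a group limit the precision of every value.

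The Id proteins carry the helix-loop-helix that binds partner proteins but lack the basic region that touches DNA, so they hold E proteins and other bHLH activators away from their sites. They are classical targets of BMP and SMAD signalling and are also induced by serum and by neuronal activity. Hes1 and the Bhlhe factors do bind DNA: Hes1, a standard target of Notch, recruits Groucho corepressors of the Tle family, and Bhlhe40 and Bhlhe41 occupy E-boxes and repress targets of the clock activators Clock and Bmal1. In the sympathoadrenal lineage, from which chromaffin cells derive, bHLH activators paired with E proteins guide differentiation.

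The stretches before the transcription starts of 5 members are shown because Id1 and Id2 changed in opposite directions, because Hes1 is a standard target of Notch, and because Bhlhe40 and Bhlhe41 share the E-box that their own products bind. Each is the 250 bases upstream of the start, 5′ to 3′ on the gene's strand, from RefSeq on build GRCr8. Capitals mark every match, on either strand, to the motifs described after them.
Id1, chr3:161671314-161671563, plus strand: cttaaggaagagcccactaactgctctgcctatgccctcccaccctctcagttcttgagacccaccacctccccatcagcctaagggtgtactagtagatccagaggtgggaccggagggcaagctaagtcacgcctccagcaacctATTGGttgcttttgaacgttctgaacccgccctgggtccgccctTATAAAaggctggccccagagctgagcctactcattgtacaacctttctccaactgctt
Id2, chr6:47470996-47471245, minus strand: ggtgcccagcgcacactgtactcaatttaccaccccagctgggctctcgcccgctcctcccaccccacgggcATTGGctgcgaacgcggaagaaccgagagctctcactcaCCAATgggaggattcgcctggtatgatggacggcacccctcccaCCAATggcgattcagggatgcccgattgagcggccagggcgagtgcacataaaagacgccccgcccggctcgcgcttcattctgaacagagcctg
Hes1, chr11:84213046-84213295, minus strand: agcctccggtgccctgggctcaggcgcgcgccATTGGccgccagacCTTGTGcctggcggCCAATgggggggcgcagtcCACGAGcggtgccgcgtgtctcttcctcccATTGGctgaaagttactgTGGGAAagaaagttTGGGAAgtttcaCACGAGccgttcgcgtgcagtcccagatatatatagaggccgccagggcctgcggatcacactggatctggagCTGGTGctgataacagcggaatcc
Bhlhe40, chr4:143174200-143174449, plus strand: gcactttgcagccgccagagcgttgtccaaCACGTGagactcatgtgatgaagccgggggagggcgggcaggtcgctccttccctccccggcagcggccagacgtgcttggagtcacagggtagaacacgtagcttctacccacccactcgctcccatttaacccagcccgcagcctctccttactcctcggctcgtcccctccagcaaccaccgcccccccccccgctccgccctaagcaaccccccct
Bhlhe41, chr4:180569356-180569605, minus strand: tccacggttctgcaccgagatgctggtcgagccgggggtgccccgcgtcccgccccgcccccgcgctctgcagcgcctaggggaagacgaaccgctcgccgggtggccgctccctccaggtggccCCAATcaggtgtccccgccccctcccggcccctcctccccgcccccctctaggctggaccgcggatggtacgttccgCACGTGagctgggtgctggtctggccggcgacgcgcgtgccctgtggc

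All 7 members had an entry among 33469 promoters of the same length, and 9 motifs were searched on both strands. The RBPJ letters TGGGAA, the Notch-responsive site, stand in the Hes1 stretch at 123 and 109 bases before the start, and 22.1% of all promoters hold them. Hes1 also holds 4 matches to the N-box CACNAG, the site that Hes1 protein itself binds, which 37.2% of all promoters hold. The E-box CACGTG lies 220 bases before the start of Bhlhe40 and 48 bases before that of Bhlhe41, against 5.59% of all promoters. Id1 holds the TATA letters TATAAA 59 bases before its start (12.9% of all promoters) and Id2 does not. The CCAAT letters occur once in the Id1 stretch, at 3 places in Id2, at 3 in Hes1 and once in Bhlhe41 (34.0% of all promoters). The TATA and CCAAT letters were added after the sequences had been seen. None of the 7 stretches, those of Id3 and Id4 included, holds the CRE TGACGTCA (1.59% of all promoters), its core TGACG (18.2%), the SMAD letters GGCGCC (8.69%) or the Egr letters GCGTGGGCG (0.478%). The CRE contains its own core, so those counts overlap. A match is only a match of letters, and a missing one says only that the letters are not in this window.

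Values are linear intensities as deposited, with the arrays already scaled to nearly equal trimmed means. Medians over all probe sets were 864 and 827 on the immobilized arrays and 955 and 911 on the unstressed arrays, and the 27 Bacillus control probe sets, for transcripts absent from rat, read 2.18 to 257. Fos, an immediate early gene, read 12288 and 14407 against 574 and 291, higher in both arrays labelled immobilized. The 11 chromaffin markers on the array summed to between 307870 and 428920 on immobilized arrays and between 316930 and 353960 on unstressed arrays. The tissue was not free of cortex: 10 adrenal cortex markers summed to 338700 to 475960 against 400390 to 448320, and Star, which delivers cholesterol for steroid synthesis, read 63873 and 43245 against 46583 and 53591. The lower immobilized sum of each list, 307870 for chromaffin and 338700 for cortex markers, came from immobilized 2. The highest intensity on immobilized 2 was below the highest on every other array. The part of that lower top reading in the spread of these sums was not tested. In bulk RNA, fewer cells of a type and less RNA per cell cannot be told apart.

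**Figure D1:**
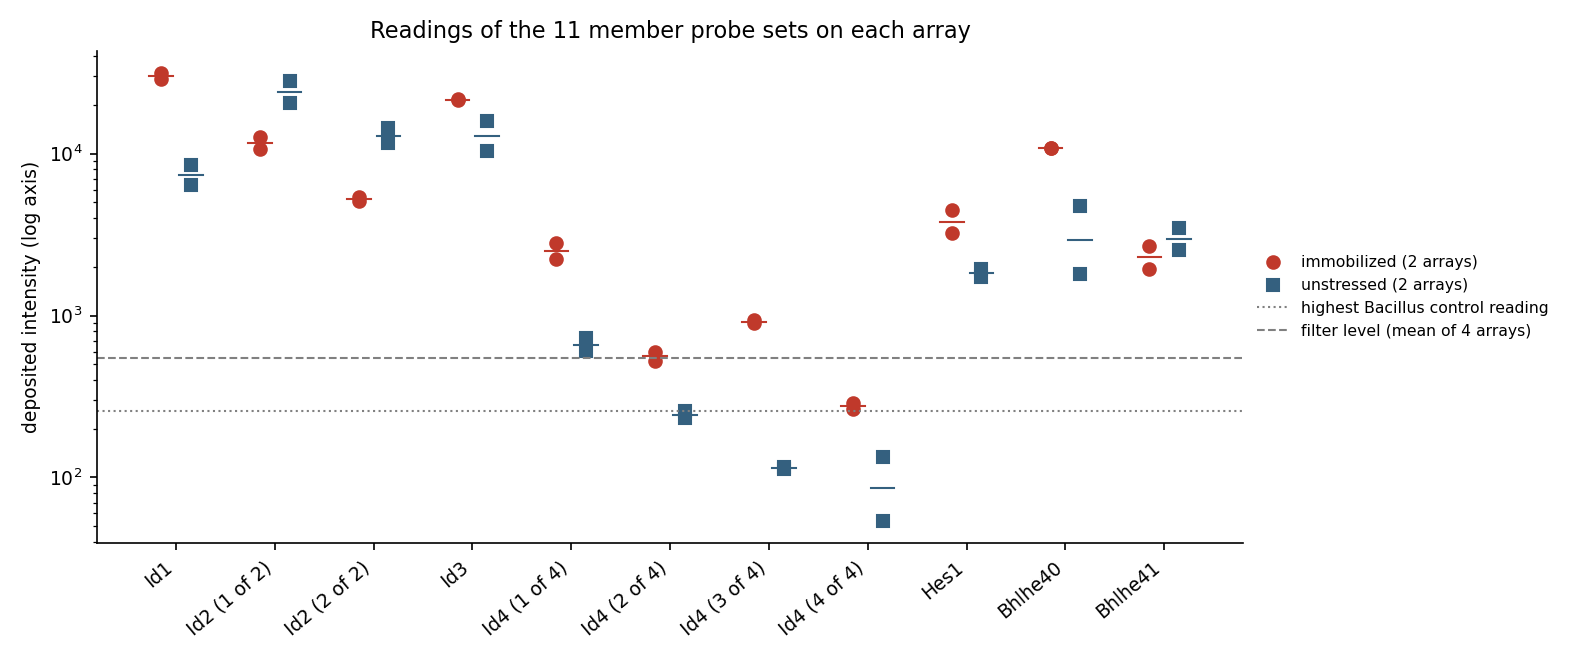
Deposited intensity (log axis) of each member probe set on the 2 immobilized arrays (circles) and the 2 unstressed arrays (squares), with the mean on the log scale as a bar; numbered probe sets of a gene run from the brightest to the dimmest. Id1 reads 28777 and 31464 on the immobilized arrays, above 8484 on unstressed 2, while the order is the opposite for both Id2 probe sets, and 3 Id4 probe sets have means below the filter level of 544.

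Id1, a broadly expressed inhibitor of E proteins, had intensities of 31464 and 28777 on the immobilized arrays and 6426 and 8484 on the unstressed arrays (probe set 1387028_a_at). The groups were far apart, and the lower immobilized array exceeded the higher unstressed one by 1.76 on the log2 scale. The log2 change, immobilized minus unstressed, was 2.02 ± 0.16 (SE, n = 2 per group), or 4.07-fold, with a 95% interval of 1.64 to 2.41 and a Benjamini-Hochberg adjusted p of 0.000418 in limma. This is a change in log2(intensity + 16), as are all that follow, and the adjustment runs over all 18625 tested probe sets. Among the tested members no rise was larger with all arrays as deposited, but the order is not fixed. Id4 was ahead after quantile normalization (2.00 against 1.98), without unstressed 1 (2.03 against 1.82) and without immobilized 1 (2.06 against 1.96), and Bhlhe40 without unstressed 2 (2.57 against 2.22).

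Id2, the family member known for binding the retinoblastoma protein Rb1, went the other way. Its brighter probe set, 1375532_at, read 12745 and 10653 on the immobilized arrays, against 20447 and 28181 on the unstressed arrays. Its other probe set, 1368870_at, read 5437 and 5130 against 11665 and 14323. Both read lower on both immobilized arrays than on either unstressed array, as did 42.4% of all tested probe sets. The log2 changes were -1.04 ± 0.18 (2.06-fold lower, adjusted p = 0.00722 in limma) and -1.29 ± 0.14 (2.44-fold lower, adjusted p = 0.00135), and their 95% intervals, -1.48 to -0.60 and -1.63 to -0.95, overlap widely. Without immobilized 2 the brighter probe set gave -0.91 with an adjusted p of 0.0709.

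Id3, which like Id1 is expressed in many tissues including blood vessels, read 21616 and 21627 on the immobilized arrays and 10384 and 16012 on the unstressed arrays (1387769_a_at). The immobilized arrays were nearly identical, whereas the unstressed arrays lay 0.62 apart on the log2 scale. The log2 change was 0.74 ± 0.21, or 1.68-fold, with an interval of 0.26 to 1.23 and an adjusted p of 0.0336 in limma. The call was not stable: the adjusted p was 0.0581 without the filter on dim probe sets and 0.0658 without the intensity trend. It was 0.149 without immobilized 1, 0.159 without immobilized 2 and 0.087 without unstressed 1, where the log2 change was 0.43, against 1.06 without unstressed 2.

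Id4, the fourth inhibitor of the family and the one best known from neural tissue, had 3 of its 4 probe sets under the filter. Its brightest probe set, 1394022_at, read 2223 and 2804 on the immobilized arrays, against 728 and 600 on the unstressed arrays. It rose by 1.89 ± 0.23 on the log2 scale, or 3.71-fold, with an interval of 1.35 to 2.43 and an adjusted p of 0.00179 in limma. The other 3 were fitted only in the alternative with no filter. In it 1375120_at, at 942 and 895 against 116 and 113, rose by 2.84 ± 0.32 (adjusted p = 0.00336 in limma). Its unstressed readings were no higher than some Bacillus controls, which leaves them not shown to be above background and makes the size depend on the offset. In that fit 6.69% of all probe sets rose. The remaining probe sets did not pass there: 1375183_at read 597 and 524 against 232 and 257 (log2 change 1.14, adjusted p = 0.0555), and 1385923_at read 290 and 265 against 134 and 54 (1.52, adjusted p = 0.0856). Each of the 4 Id4 probe sets read higher on both immobilized arrays than on either unstressed array, as did 25.5% of all tested probe sets. That share leaves out probe sets under the filter. The 4 report on the same gene and are not separate results.

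Hes1, the Notch-responsive repressor, read 3217 and 4485 on the immobilized arrays and 1933 and 1731 on the unstressed arrays (1387036_at). Here the immobilized arrays were the more variable pair, 0.48 apart on the log2 scale, against 0.16 between the unstressed arrays. The log2 change was 1.05 ± 0.20, or 2.07-fold, with an interval of 0.56 to 1.53 and an adjusted p of 0.0101 in limma. Without immobilized 2, the higher of the pair, it was 0.81 with an adjusted p of 0.0983.

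Bhlhe40 and Bhlhe41, close relatives that bind the same E-box, did not give the same result. Bhlhe40 read 10872 and 10837 on the immobilized arrays, against 1811 and 4731 on the unstressed arrays (1369415_at). The immobilized readings were almost equal, and the unstressed readings lay 1.38 apart on the log2 scale, the widest gap between replicates of any tested member. The log2 change was 1.88 ± 0.39, or 3.69-fold, with an interval of 0.95 to 2.82 and an adjusted p of 0.0129 in limma. Its size rested on which unstressed array was used: it was 1.20 without unstressed 1 and 2.57 without unstressed 2. The call was lost without immobilized 1 (1.88, adjusted p = 0.098) and without immobilized 2 (1.89, adjusted p = 0.105), where the spread comes from the unstressed pair alone.

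Bhlhe41 read 1946 and 2704 on the immobilized arrays and 3499 and 2525 on the unstressed arrays, and the groups overlapped (1368511_at). Its log2 change was -0.37 ± 0.24, with an interval of -0.93 to 0.19 and an adjusted p of 0.273 in limma. It was the 1 tested member that did not pass, and its interval does not overlap that of Bhlhe40. The difference between the genes was not tested as such.

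**Figure D2:**
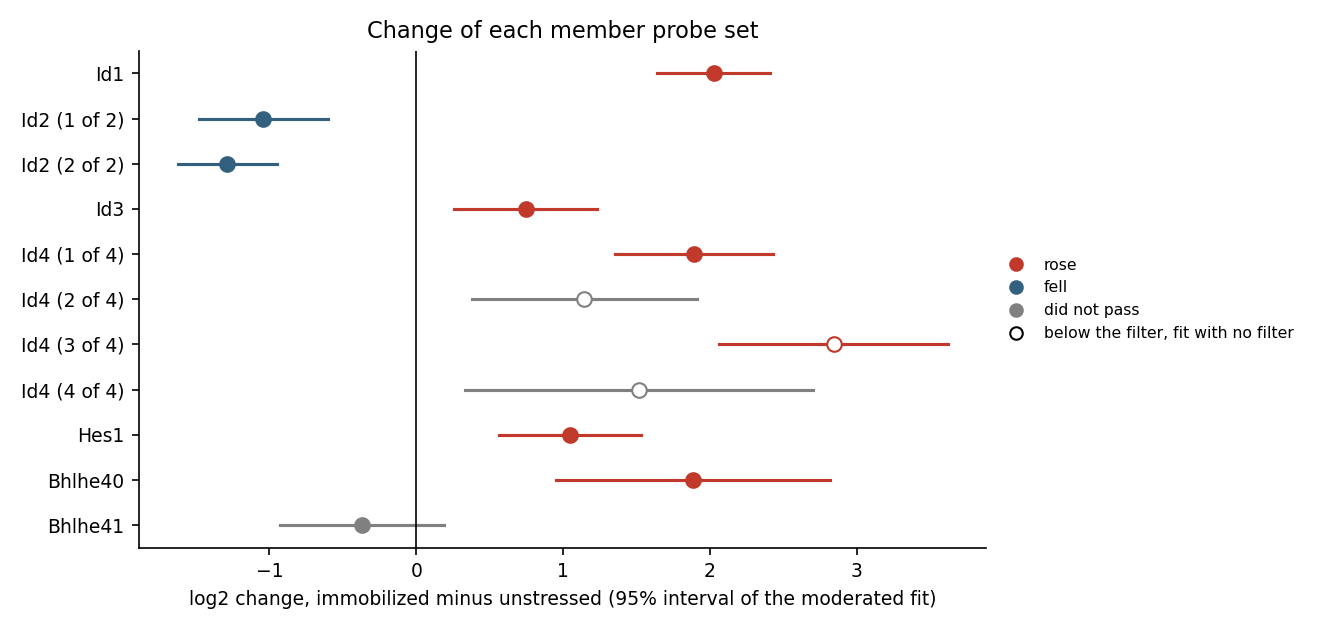
Log2 change, immobilized minus unstressed, of each member probe set with the 95% interval of the moderated fit (n = 2 arrays per group); open circles are probe sets below the filter, taken from the fit without it. Id1 at 2.02 and both Id2 probe sets at -1.04 and -1.29 lie on opposite sides of 0, and the interval of Bhlhe41 spans 0.

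Of the 11 member probe sets 8 passed the filter on mean level. Of these 8, 5 rose (Id1, Id3, Id4, Hes1 and Bhlhe40), where 11.7% of all tested probe sets rose. The 2 falls, both of Id2, are 2 of 8 where 19.4% of all tested probe sets fell. By gene, 1 of the 7 fell, where 21.8% of all tested genes fell. Readings were higher on both immobilized arrays for 5 of the 8, against 25.5% of all tested probe sets, and lower on both for 2 of the 8, against 42.4%. Changes of at least 2-fold that passed the test were seen at 6 of the 8, both Id2 probe sets among them, and at 13.8% of all tested probe sets. By gene they were seen at 71.4% of the 7 and at 13.7% of all tested genes. With 1 probe set per gene, the median log2 change was 1.05 over the 7 genes and -0.14 over all 10320 tested genes. All these calls share the same 4 arrays, and the genes were not drawn at random. They were chosen with earlier results of these data known, so the contrasts with all probe sets are descriptions and not tests. The middle of all tested changes was -0.12 as deposited and 0.02 once each array was centred on its median. The member changes then were 2.16 for Id1, -0.90 and -1.15 for Id2, 0.88 for Id3, 2.03 for Id4, 1.19 for Hes1, 2.02 for Bhlhe40 and -0.23 for Bhlhe41, with the same calls.

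**Figure D3:**
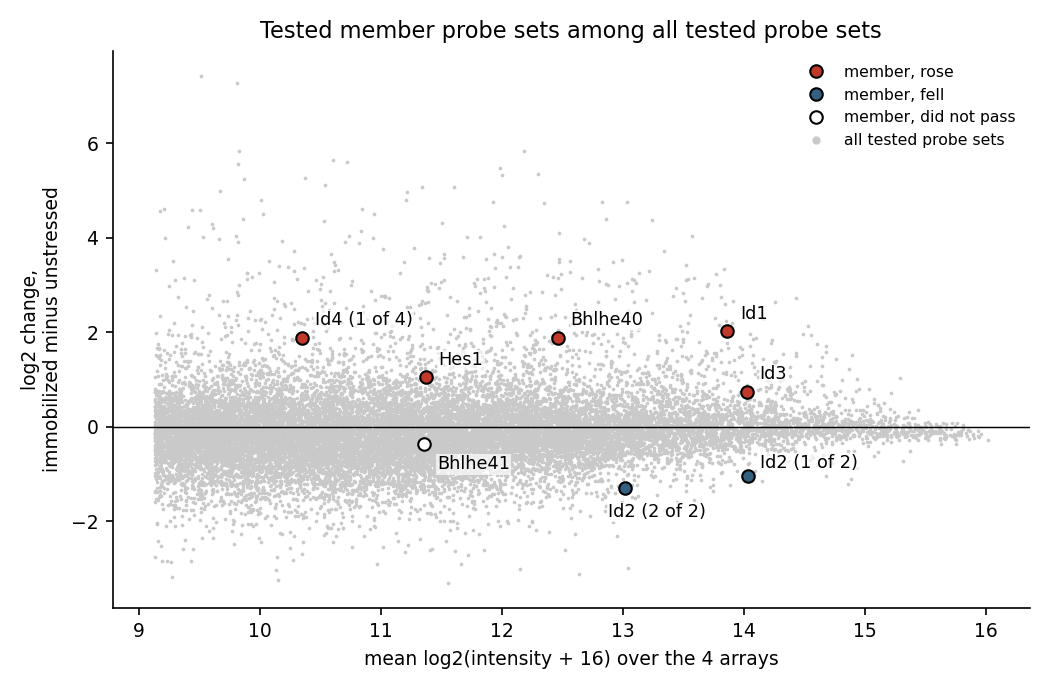
Log2 change, immobilized minus unstressed, against mean log2(intensity + 16) over the 4 arrays for all 18625 tested probe sets (grey) and the 8 tested member probe sets (filled red, rose; filled blue, fell; open, did not pass). Id1 and Id3 lie at levels near those of Id2, with changes of 2.02 and 0.74 against -1.04 for the brighter Id2 probe set.

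Each array was left out in turn. In such a fit the spread comes from the other group's pair alone. A lost call therefore does not by itself show that a change rests on the array left out. The log2 change of Bhlhe40 was 1.88 without immobilized 1 and 1.89 without immobilized 2, against 1.88 with all arrays. Of the 5 member rises, those of Id1 and Id4 passed in all 4 such fits, with log2 changes of 1.82 to 2.22 and 1.73 to 2.06. The dimmer Id2 probe set also passed in all 4, at -1.44 to -1.14. No member changed sign under any of the alternatives run.

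**Figure D4:**
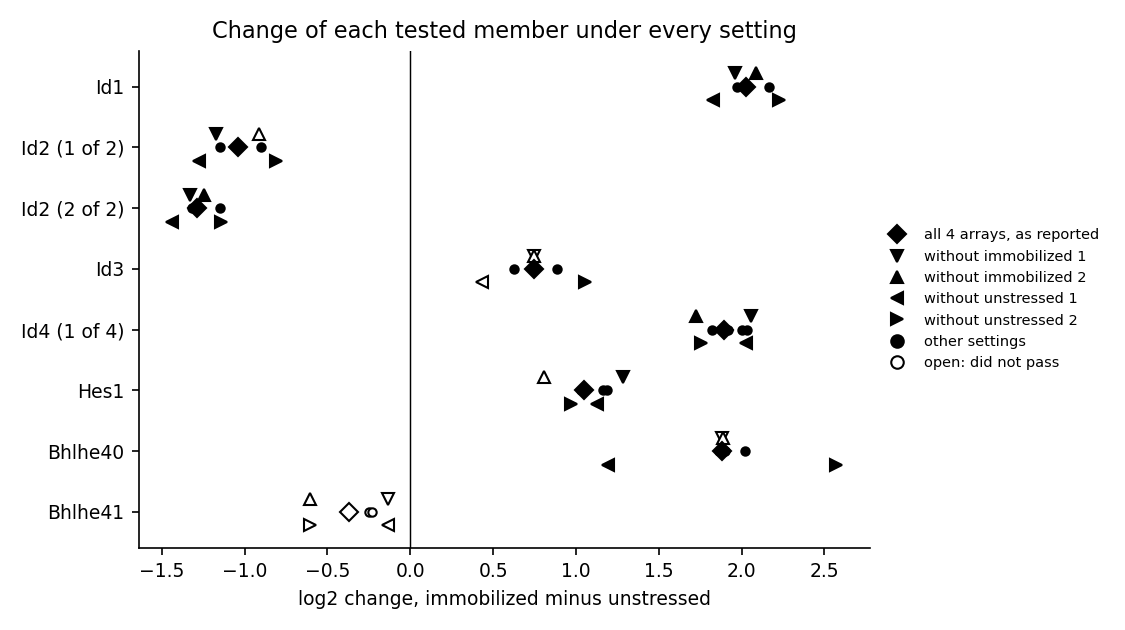
Log2 change, immobilized minus unstressed, of the 8 tested member probe sets as reported (diamonds), with each array left out (triangles) and under the other settings (circles); open symbols did not pass. Id1 and Id4 stay filled throughout, at 1.82 to 2.22 and 1.73 to 2.06, and Id3 spreads from 0.43 to 1.06 with open symbols among its fits.

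For Id1 and for the brighter Id2 probe set, which stands for its gene here, the genes whose readings ran most alike were found by the Euclidean distance between log2 values over the 4 arrays, each gene's mean taken off. Nearest to Id1 were Nampt (0.0751), Idi1 (0.0863) and B4galt5 (0.134), and nearest to Id2 were Cnr1 (0.0896), Usp46 (0.0959) and Uqcc4 (0.0991), all as distances in log2 units. With 4 arrays this is a description only.

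Genes for partners that Id proteins capture were followed next. Tcf4 and Tcf12, which encode E proteins, did not pass, with log2 changes of -0.17 ± 0.12 and 0.15 ± 0.14 and readings of 12254 and 12793 against 14836 and 13371 for Tcf4. Tcf3, the E protein gene from which the classical products E12 and E47 come, was under the filter at 288 and 336 against 666 and 605. Hand2, a bHLH factor of the sympathoadrenal lineage, gave a split result: its brighter probe set, which stands for the gene in the counts, had -0.23 ± 0.22 and did not pass, while its dimmer one fell with -0.93 ± 0.25 (adjusted p = 0.0325 in limma). The call on the dimmer one was lost without immobilized 2 (-0.60, adjusted p = 0.184), after quantile normalization (0.0502) and with no filter (0.0501). Of the 17 E protein and lineage bHLH genes on the array 7 were tested, by 1 probe set each, and 0 passed in limma. Over all tested genes 11.2% rose and 21.8% fell. Of the 7, 1 had an unadjusted p under 0.05. That gene was Tcf21, at 0.68 ± 0.25 (adjusted p = 0.0782). It passed after quantile normalization and after median centring (0.82 in both, adjusted p = 0.0333 and 0.0348) and without unstressed 1 (0.96, adjusted p = 0.0119). Hand1 had -0.34. The median over the 7 was -0.12. Below the filter, Olig1, a neural lineage bHLH gene, read 569 and 748 against 12.3 and 165, and in the fit with no filter it rose with a log2 change of 3.22 ± 0.84 (adjusted p = 0.0464 in limma). Its unstressed readings were no higher than some Bacillus controls.

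Of 10 tested Id partners and turnover genes outside the bHLH family, 1 rose and 4 fell, where 11.2% of all tested genes rose and 21.8% fell. Cdkn1a, the cell cycle inhibitor that E proteins activate and Id proteins oppose, read 11324 and 10471 against 1039 and 1459, a rise of 3.13 ± 0.19 (adjusted p = 0.000158 in limma). Cops5, a signalosome subunit that binds Id proteins, fell with a log2 change of -0.86 ± 0.14, and Elk4, an Ets factor of the class that Id proteins bind, with -0.77 ± 0.15. The pocket protein genes Rbl1 and Rbl2 had -0.77 and -0.48, and Rb1, at 1992 and 4328 against 1394 and 1405, did not pass at 1.06 ± 0.34 (adjusted p = 0.0565). The calls on the falls were thin: those of Rbl1 and Rbl2 were lost after quantile normalization (adjusted p = 0.0828 and 0.0536) and median centring (0.0902 and 0.111), that of Cops5 without immobilized 2 (0.0713) and that of Elk4 without immobilized 1 (0.0837). Both Rbl1 and Rbl2 also lost the call without either immobilized array (adjusted p of 0.0995 or more). The list had fewer calls with immobilized 1 or immobilized 2 left out, as did all tested probe sets. It had 2 rises and 2 falls after either rescaling and 1 and 2 in the fit with no filter. These counts cover the 10 genes that passed the filter. Cdkn2b, another cell cycle inhibitor of the list, lay below it at 62.1 and 52.1 against 416 and 724, and with no filter it fell with -2.96 ± 0.43 (adjusted p = 0.00735 in limma), where 10.6% of all probe sets fell. Its immobilized readings were no higher than some Bacillus controls.

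Among the relatives and corepressors of Hes1, 2 of 11 tested genes rose and 0 fell (limma, 3 and 1 at an unadjusted p under 0.05), with a median of 0.14. Over all tested genes 11.2% rose and 21.8% fell. Tle3, a Groucho corepressor that Hes1 recruits, read 12872 and 13669 on the immobilized arrays, against 4673 and 3260 on the unstressed arrays, a rise of 1.76 ± 0.18 (adjusted p = 0.00111 in limma). It passed in every fit run. Its relative Tle1 rose by 0.74 ± 0.21, and lost the call without unstressed 2 (0.45, adjusted p = 0.0505), without immobilized 1 (0.69, 0.201) and without immobilized 2 (0.79, 0.165). Hes6, a relative that opposes Hes1, did not pass at 0.31 ± 0.15, with 18468 and 18542 against 13290 and 16685. The Notch effectors Hey1, Hey2 and Heyl had -0.39, 0.75 and 0.24 and did not pass, though Hey2 did without unstressed 1 (1.08, adjusted p = 0.0261). Hes2, Hes3, Hes5 and Helt were under the filter. The list had 1 rise with no filter or without the intensity trend. With immobilized 1 or immobilized 2 left out its calls were also fewer, as over all tested probe sets. Leaving out an unstressed array changed the counts too.

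Of 21 tested Notch pathway genes 2 rose and 3 fell, where 11.2% of all tested genes rose and 21.8% fell. The median over the 21 was -0.07. Nrarp, a Notch target that feeds back on the pathway, read 1679 and 1733 against 736 and 500 and rose by 1.47 ± 0.25. Jag1, a Notch ligand, rose by 1.00 ± 0.26. The glycosyltransferase genes Mfng and Rfng, whose products modify Notch, changed by -1.07 ± 0.21 and -0.50 ± 0.15, and Adam17, a shedding protease, by -0.75 ± 0.18. Rbpj, the DNA-binding partner of activated Notch, did not pass at -0.25 ± 0.12, nor did Notch1 at 0.12. The counts depended on the scaling, at 4 rises and 3 falls after quantile normalization and 4 and 2 after median centring. With immobilized 1 or immobilized 2 left out the calls were fewer, and without unstressed 1 more, as over all tested probe sets.

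Of 22 tested BMP pathway genes 5 rose and 4 fell, where 11.2% of all tested genes rose and 21.8% fell. The median over the 22 was 0.12. Bmp2, a ligand that induces Id genes, read 13003 and 12938 against 6402 and 8539, a rise of 0.81 ± 0.16, and a dimmer Bmp2 probe set had 1.25. Smad7, an inhibitory SMAD, read 2539 and 2545 against 1583 and 1250 and rose by 0.85 ± 0.19, whereas Smad6, the other inhibitory SMAD, did not pass at 0.24. The antagonists Nbl1 and Bambi rose by 1.66 ± 0.27 and 0.69 ± 0.17. Hamp, the iron hormone hepcidin and a BMP target in liver, read 47382 and 44261 against 12116 and 23280 and rose by 1.45 ± 0.28. The falls were those of the receptor genes Acvr2b (-1.17 ± 0.25) and Bmpr1a (-0.81 ± 0.22) and of the signal-carrying Smad9 (-1.05 ± 0.25) and Smad5 (-0.61 ± 0.14). The probe sets of Smad5 disagreed, the highest at 1.33, and the call on Bmpr1a was lost after quantile normalization and median centring (adjusted p = 0.0632 and 0.0596). After median centring the list had 8 rises and 3 falls. With immobilized 1 or immobilized 2 left out its calls were fewer, as over all tested probe sets. Grem1, a BMP antagonist below the filter, read 312 and 563 against 102 and 5.62 and with no filter rose with 3.11 (adjusted p = 0.0476 in limma), its unstressed readings again no higher than some Bacillus controls.

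**Figure D5:**
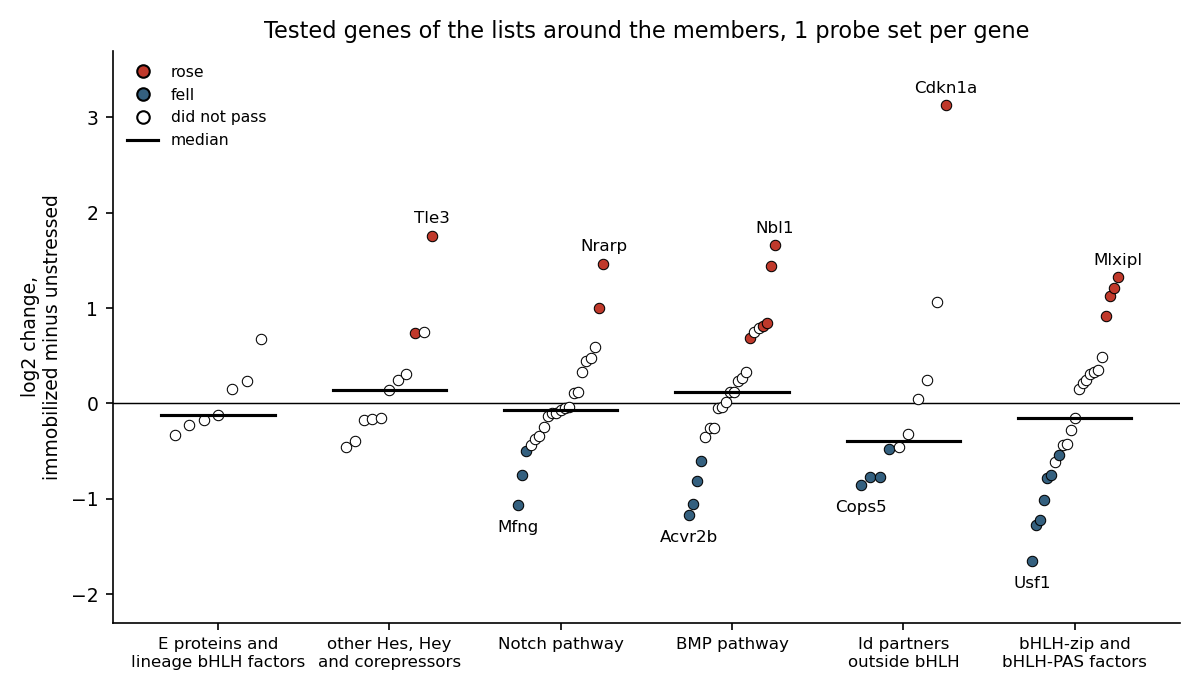
Log2 change, immobilized minus unstressed, of the tested genes in 6 lists around the members, 1 probe set per gene, ordered by value within a list; red rose, blue fell, open did not pass, and the bar is the median. Cdkn1a at 3.13 and Tle3 at 1.76 are the highest genes of their lists, while the list medians lie between -0.39 and 0.14.

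The median log2 change of 14 tested clock genes was -0.16. Bhlhe40 and Bhlhe41 oppose the activators Clock and Bmal1, which the list includes along with Npas2. Of the 14, 4 rose and 5 fell, against 11.2% and 21.8% of all tested genes. Fewer were called when immobilized 1 or immobilized 2 was left out, as over all tested probe sets. The largest change of the list was that of Nfil3, at 47534 and 41419 against 1786 and 2478. It rose by 4.39 ± 0.18 (adjusted p = 4.58e-05 in limma). Per1 read 5864 and 6681 against 2230 and 1940, and Dbp read 1881 and 3242 against 9943 and 13440. Per1 and Dbp thus moved in opposite directions. Per2 rose by 1.16 ± 0.25, while Tef had -1.43 ± 0.14 and Npas2 -1.21 ± 0.24. Clock itself had 0.27 ± 0.15 and did not pass. The tested Clock probe sets disagreed in sign, the lowest at -0.60.

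Markers of cell types were read on the same arrays. Which cells of the tissue held the member transcripts was not measured. The 8 smooth muscle and pericyte markers summed to 39161 to 39766 on immobilized arrays and 24226 to 27741 on unstressed arrays, with no marker at 0 and a lowest reading of 142. Of its 7 tested markers 2 rose and 0 fell, where 11.2% of all tested genes rose and 21.8% fell. The rises were those of Acta2, smooth muscle actin, by 1.36 ± 0.14 and Tagln by 0.84 ± 0.12. Both passed in every fit run. Of the other tested markers Myl9 and Myh11 had 0.35 and 0.31, Rgs5 and Pdgfrb 0.07 and 0.02 and Des -0.22. None of these passed, so the calls rest on 2 genes of the list. The part of the difference in these sums in the member changes was not tested. The 11 endothelial markers summed to 66988 to 72410 against 67708 to 77350, groups that overlap, and of 10 tested 2 rose and 1 fell. Endothelial calls were fewer with immobilized 1 or immobilized 2 left out, as over all tested probe sets. Of 11 tested chromaffin markers 1 rose and 0 fell, or 3 and 0 without unstressed 1 and 2 and 0 without immobilized 2. Of 9 tested cortex markers 2 rose and 0 fell, but 1 and 2 did after quantile normalization, 1 and 3 without immobilized 1, 1 and 1 without unstressed 1, and 1 and 0 without immobilized 2. Of 5 tested Schwann and sustentacular cell markers 1 rose and 1 fell, or 2 and 1 without unstressed 1 and 1 and 0 without either immobilized array. None of 7 fibroblast, 9 macrophage, 1 lymphocyte and 2 red blood cell markers tested passed in limma, where those at an unadjusted p under 0.05 were 1 fibroblast, 2 macrophage, 1 lymphocyte and 0 red blood cell markers. Without unstressed 2, however, 2 macrophage markers rose and 1 fibroblast marker fell. The 9 macrophage markers summed to 46726 to 54450 against 43626 to 45778 and the 6 lymphocyte markers to 1924 to 2222 against 1657 to 1840. Neither pair of ranges overlaps, but the markers within each sum did not all change in the same direction. Of the 9 macrophage markers 3 read higher on both immobilized arrays and 1, Cd68, lower on both. Over all tested probe sets those shares were 25.5% and 42.4%. Of the 6 lymphocyte markers 5 lay below the filter, with a lowest reading of 11.1. Cd3g, the tested one, Cd2 and Ms4a1 read higher on both immobilized arrays, and Cd3e and Cd79b lower on both. The part of these sums in the member changes was not tested either.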

How the data were processed

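The authors deposited 1 linear intensity per probe set for each of the 4 arrays (31099 rows). The summary method behind them, from probes to probe sets, was not given in the sources used here. Array numbers follow accession order and pair no samples. The deposited columns had 2% trimmed means of about 2501 that differed by 0.00572%, so no further scaling was applied. After the 57 control probe sets were removed, values were turned into log2(intensity + 16), and 18625 probe sets with a mean at or above the 40th percentile (intensity 544) were tested. Dim probe sets therefore have no main test, and the offset understates their changes. Genes came from GEO's platform annotation, with symbols checked by Entrez identifier against RefSeq on GRCr8 (20758 of 20826 found). A gene was represented by its brightest tested probe set.

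The comparison was fitted in limma 3.58.1 under R 4.3.3 (lmFit, eBayes with intensity trend, 6.81 degrees of freedom in all), two-sided, Benjamini-Hochberg adjusted over all tested probe sets at 0.05, and the code was tested on simulated data. An exact permutation test of 2 against 2 cannot go below p = 0.33 and was not used. Lists were described by counts and medians, with no set test. The members and the lists were chosen with earlier results of these data known. Genes named from a list were up to 6 called ones with the largest change (the 2 largest where none was called) plus a fixed set of E proteins, relatives and pathway components. Some of these are left unmentioned. Rb1, Mycn, Tfeb, Tfe3, Bambi, Bmp2, Smad5, Olig1, Grem1, Cdkn2b and Star were picked as examples after their values were seen. So were the named smooth muscle, macrophage and lymphocyte markers. Alternatives were 2 rescalings, offsets of 1 and 64, no filter or one at the 60th percentile, 2 other variance models, each array left out and a threshold of 0.10. There were 0 unused sample columns. Figures were drawn with matplotlib 3.10.9.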

Additional observations from a re-analysis of the deposited data

How the results depend on the processing

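With each array left out in turn, the probe sets that rose numbered 785 to 2638 and those that fell 893 to 3800, against 2180 and 3619 with all arrays. The member probe sets that passed numbered 3 to 7 (2 to 5 rises and 1 to 2 falls), against 7 (5 and 2) with all arrays. The lowest counts came without immobilized 2, where the spread rests on the unstressed pair alone. Under every other setting 6 or 7 member probe sets passed. The split of calls depended on the scaling, with 37.6% of calls being rises as deposited, 44.9% after quantile normalization and 53.2% after median centring. Id4 had no tested probe set with the filter at the 60th percentile. Of the named genes that did not pass, Hand2 ranged from -0.55 without immobilized 1 to 0.10 without immobilized 2, Heyl from -0.081 without immobilized 1 to 0.57 without immobilized 2, and Notch1 from -0.042 without unstressed 2 to 0.28 without unstressed 1. The mean of the Id2 probe sets gave a log2 change of -1.17. No paired analysis was possible because the labels give no replicate number shared between groups. The 2 arrays per group set the precision, and of the members only dimmer Id4 probe sets had readings as low as the Bacillus controls.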

Other observations

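Other families of helix-loop-helix factors were also measured. Of 23 tested genes for bHLH factors with a leucine zipper or a PAS domain, 4 rose and 7 fell, with a median log2 change of -0.15. Over all tested genes 11.2% rose and 21.8% fell. Mlxipl, which encodes the glucose-responsive factor ChREBP, read 5878 and 6751 on the immobilized arrays, against 2344 and 2676 on the unstressed arrays, a rise of 1.33 ± 0.15 (adjusted p = 0.00151 in limma). Myc, Mycn and Mitf rose by 1.12, 0.92 and 1.21. Srebf1, a regulator of lipid synthesis, read 3155 and 3368 against 8323 and 7501, a log2 change of -1.27 ± 0.13 (adjusted p = 0.00108). Usf1, a ubiquitous E-box activator, had -1.66 ± 0.29, Tfap4 -1.23 ± 0.28, and the lysosomal regulators Tfeb and Tfe3 -1.02 and -0.78. Leaving out immobilized 1 or immobilized 2 gave fewer calls in the list, as it did over all tested probe sets. Mlxipl and Srebf1 kept their calls in all fits run, while those of Usf1 (without immobilized 2, adjusted p = 0.0788), Tfap4 and Myc (without immobilized 1, 0.0949 and 0.0574) and Mitf (without immobilized 1 and 2, 0.174 and 0.0515) were lost.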
